A study of Caenorhabditis elegans with 2 samples.

Results

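The FMRFamide-like peptide genes (flp) and the neuropeptide-like protein genes (nlp) encode most of the known small signalling peptides of the nematode *Caenorhabditis elegans* outside the insulin family. With earlier results of these data known, they were chosen by name. They are the protein-coding genes of the WBcel235 annotation called flp or nlp followed by a number. This gave 102 genes, 31 flp and 71 nlp, of 19973 protein-coding genes on the 6 nuclear chromosomes. The peaks described are those of the homeodomain protein CEH-8 whose summit, the highest point of the peak, lay inside one of these genes or within 2000 bp of it. CEH-8 was tagged with GFP and its chromatin was precipitated with an anti-GFP antibody and sequenced (ChIP-seq) in 2 biological replicates. These are 1 group: whole L1 larvae of mixed sex, aged 6 hours and starved after bleaching, of strain OP760. Both replicates carry the mutation unc-119(tm4063) and the integrated transgene wgIs760, in which ceh-8 is fused to TY1, EGFP and 3xFLAG tags beside unc-119(+) as a rescue marker. There is no second condition, and every comparison is between genes or peaks of this one group. Because whole animals were used, a peak does not say in which cells CEH-8 was bound.

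A flp or nlp gene encodes a precursor protein that is cut at pairs of basic residues into short peptides, many of which are then amidated, packed into dense core vesicles and released to act on G protein-coupled receptors. The flp peptides end in an arginine and an amidated phenylalanine, while nlp is a collective name for the remaining families, including epidermal antimicrobial peptides and relatives of mammalian cholecystokinin and gonadotropin-releasing hormone. The gene ceh-8 is known as a marker of the RIA interneurons, and paired-like homeodomain proteins, the class of CEH-8, are known to bind DNA words with a TAAT core, singly or as a palindrome of such cores. One of the peptide genes, nlp-22, is known from RIA and promotes a sleep-like state.

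The authors' list of optimal IDR peaks (IDR, the irreproducible discovery rate, measures how alike peaks rank between replicates) held 1891 peaks, and 14 of their summits lay in reach of 12 of the peptide genes. The 6 sequences printed are 101 bases centred on a summit, on the plus strand of the RefSeq assembly GCF_000002985.6 (WBcel235, the build the files call ce11). The first 4 are at summits that hold TAATTG, a word at 5 of the 6 strongest of these peaks. Those 6 reach down to rank 368, a cut made after the values were seen. Among all IDR peaks of ranks 1 to 368, 12.2% held the word. The strongest of these peaks, at ranks 42 and 62, are not printed, and the one at rank 62 lacks the word. The printed set therefore does not show how common TAATTG is. The nlp-25 and nlp-66 sequences, both rich in G or C, are from 2 peaks that were far weaker or missing in replicate 2. Capitals mark TAATTA, which reads alike on both strands, and TAATTG, which on the other strand is CAATTA. They also mark the palindrome TAATNNNATTA, with any base at N, and GAGAGA, which on the other strand is TCTCTC.
nlp-11, chrII:9690217-9690317: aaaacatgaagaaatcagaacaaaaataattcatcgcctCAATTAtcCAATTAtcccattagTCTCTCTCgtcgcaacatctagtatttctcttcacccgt
nlp-69, chrV:20094054-20094154: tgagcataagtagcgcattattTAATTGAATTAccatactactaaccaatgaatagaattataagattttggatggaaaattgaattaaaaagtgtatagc
nlp-1, chrX:3726679-3726779: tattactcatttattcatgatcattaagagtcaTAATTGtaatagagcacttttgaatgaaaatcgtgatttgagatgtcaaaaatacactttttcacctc
flp-5, chrX:8528752-8528852: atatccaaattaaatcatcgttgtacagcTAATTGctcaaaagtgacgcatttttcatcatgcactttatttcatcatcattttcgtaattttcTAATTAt
nlp-25, chrV:19610250-19610350: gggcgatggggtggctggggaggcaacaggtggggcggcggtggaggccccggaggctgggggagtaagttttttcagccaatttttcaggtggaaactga
nlp-66, chrX:11114555-11114655: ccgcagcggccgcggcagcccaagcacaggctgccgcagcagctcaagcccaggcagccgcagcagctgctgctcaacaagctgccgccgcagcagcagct

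The share of peptide genes with an IDR peak lay close to that of all genes. Of the 102 peptide genes, 12 had an IDR summit in reach, which is 11.8% (exact binomial 95% interval over genes 6.23 to 19.6%), against 13.0% of all protein-coding genes. Of the 71 nlp genes, 10 had one, or 14.1% (6.97 to 24.4%), and of the 31 flp genes 2 had one, or 6.45% (0.791 to 21.4%). The difference, flp minus nlp, was −7.63 percentage points, and the intervals of both families overlap each other and hold the share of all genes. The intervals cover counting error over genes only, and genes are not replicates of a condition, so no test was made.

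Among its strongest peaks, each replicate taken alone gave the families in the same order. Among the 1891 strongest peaks of replicate 1, 2 flp genes and 11 nlp genes (15.5%) had a summit in reach, against 12.8% of all genes. Among the same number of strongest peaks of replicate 2, 2 flp genes and 8 nlp genes (11.3%) had one, against 12.6% of all genes. The difference, flp minus nlp, was thus −9.04 percentage points in replicate 1 and −4.82 in replicate 2 (SD between the replicates 2.99, n = 2). With IDR peaks found in both replicates, those with a top-1891 peak no more than 200 bp from the summit in each of the replicate lists, 2 flp genes and 6 nlp genes (8.45%) were left. That is 7.84% of the peptide genes against 8.22% of all genes, and the gap between the families narrows to −2.0 percentage points.

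**Figure D1:**
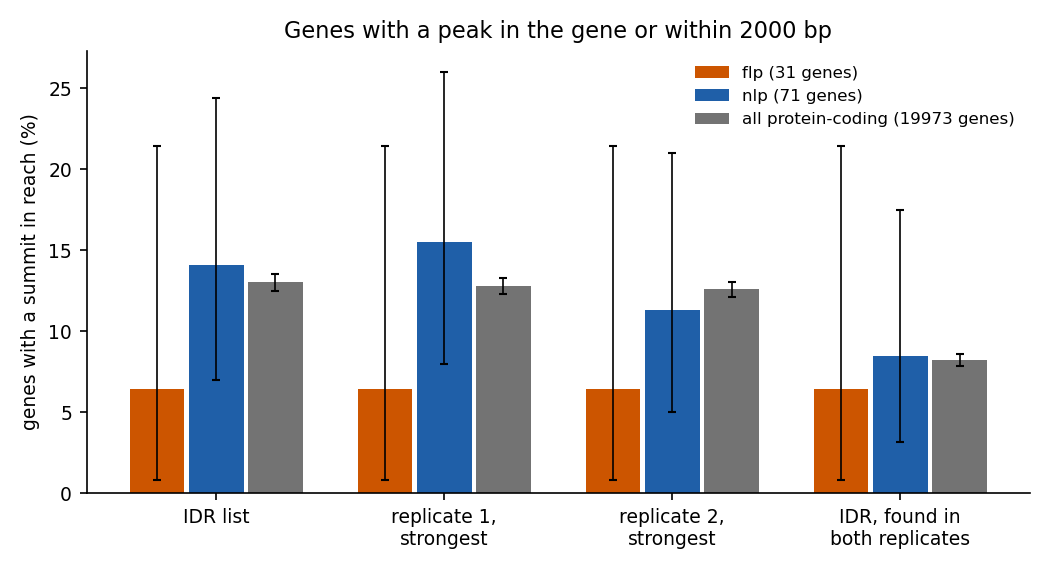
Share of genes (percent, vertical axis) with a summit in the gene or within 2000 bp, for flp genes, nlp genes and all protein-coding genes, in the IDR list, in the 1891 strongest peaks of each replicate and in IDR peaks found in both replicates. Bars start at 0 and error bars are exact binomial 95% intervals over genes: the flp bars stand at 6.45% in every list, and the intervals of flp and nlp overlap in each.

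The genes are short, and length sets how much sequence is searched. The median span was 1186 bp for flp, 860 bp for nlp and 2027 bp for all protein-coding genes. Per 100 kb of searched sequence there were 1.60 IDR summit and gene pairs for flp, 2.84 for nlp and 2.06 for all genes. On this scale too the flp value was below and the nlp value above that of all genes, from 3 flp and 11 nlp pairs.

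The deposited pooled list, made from both replicates together, reaches far down in signal and held 30000 peaks. In it 25 of the 31 flp genes (80.6%) and 52 of the 71 nlp genes (73.2%) had a summit in reach, together 75.5% against 82.5% of all genes. Per 100 kb the pairs numbered 31.0 for flp, 29.7 for nlp and 31.1 for all genes. The flp share was the higher one here, unlike in the IDR list, and the exact intervals overlap (62.5 to 92.5% for flp, 61.4 to 83.1% for nlp). The full replicate lists, of 30000 peaks each, differed in the order. In replicate 1, 23 flp genes (74.2%) and 56 nlp genes (78.9%) had a summit in reach, against 82.1% of all genes. In replicate 2, 26 flp genes (83.9%) and 47 nlp genes (66.2%) had one, against 83.8% of all genes.

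Few of the IDR peaks lay where a promoter would be. Of the 102 peptide genes, 1 had an IDR summit in its own promoter, taken as the 1000 bp before the gene's start (0.98%, exact interval 0.0248 to 5.34%), against 5.54% of all genes. That gene was nlp-1, and no flp gene had one. In the pooled list the own promoter held a summit for 41 of the 102 genes (40.2%), 13 flp and 28 nlp, against 31.0% of all genes. An IDR summit inside the gene was found in 3 of the 102 (2.94%), against 2.87% of all genes, and these were nlp-11, nlp-15 and flp-5, each in an intron. By side, of the 14 IDR summits 4 were upstream of the peptide gene, 3 inside it and 7 downstream, and the peptide gene was the nearest gene for 8. Of the 165 distinct pooled summits at these genes, 40.6% were upstream, 28.5% inside and 30.9% downstream. The peptide gene was nearest for 61.8% of them. The same shares over all genes are not given, so these counts are descriptions only. By annotation 4 lay in a promoter of any gene (28.6%), 5 in introns (35.7%), 2 in coding exons (14.3%) and 3 in other intergenic sequence (21.4%). Of all 1891 IDR summits 841 lay in promoters (44.5%), 398 in introns, 113 in coding exons (5.98%) and 455 in other intergenic sequence (24.1%).

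**Figure D2:**
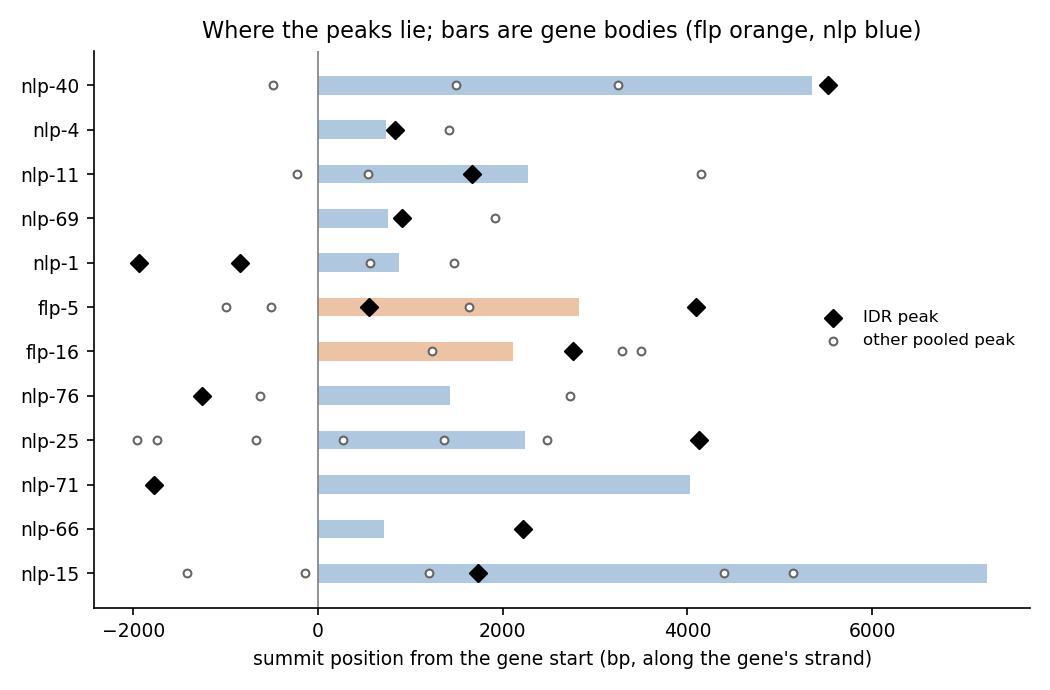
Distance in bp from each gene's start (horizontal axis, negative upstream, 0 at the start) to the 14 IDR summits, one row per gene, with the gene's span as a bar, IDR summits as diamonds and other pooled summits as open circles. Of the 14 IDR summits, 4 lie upstream, 3 inside the gene and 7 past its end.

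The strongest of these peaks was at nlp-40, which encodes an intestinal peptide known to trigger the expulsion step of defecation. It ranked 42 of the 1891 IDR peaks (I:16928-17115), with a pooled signal of 468. The signal is the authors' own value on a scale that the sources used here do not give, and it orders peaks only within 1 list. The peak had a signal of 230 in replicate 1 (rank 65) and 243 in replicate 2 (rank 37). The summit lay 177 bp past the end of the gene (I:11495-16837, plus strand, WBGene00022276) in intergenic sequence, 5519 bp from its start. Around it were 1 TAATTG and 2 GAGAGA words, and 51.5% of bases were G or C.

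The nlp-4 peak (I:10517130-10517300) ranked 62 with a pooled signal of 400. Its signal was 194 in replicate 1 (rank 94) and 203 in replicate 2 (rank 56). The summit was 102 bp past the end of nlp-4 (I:10517321-10518055, minus strand, WBGene00003742) and 69 bp from the small nucleolar RNA gene F59C6.15. It also fell in the promoter of the protein-coding gene F59C6.18, and 60.4% of bases around it were G or C. It is the only one of the 6 strongest peptide-gene summits that lacks TAATTG, and the cut at 6 was made after the values were seen.

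The nlp-11 peak, in an intron of the gene (II:9689664-9691939, minus strand, WBGene00003749), ranked 85 with a pooled signal of 350. Its signal was 165 in replicate 1 (rank 148) and 183 in replicate 2 (rank 71). The printed sequence shows a pair of TAATTG words in the same orientation followed by overlapping GAGAGA words. The summit was 1672 bp from the gene start.

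The nlp-69 peak ranked 190 with a pooled signal of 256. Its signal was 149 in replicate 1 (rank 192) and 109 in replicate 2 (rank 284). The summit was 149 bp past the end of nlp-69 (V:20094253-20095008, minus strand, WBGene00013752). Both the gene and the summit lie inside sec-23, which encodes a subunit of the COPII vesicle coat, and the summit is in an intron of it. This is the one summit of the 14 with the palindrome of TAAT cores, in which TAATTG is the first part, and palindromes were at 1.8% of all IDR summits.

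The nlp-1 gene (X:3727574-3728446, plus strand, WBGene00003739), expressed in the AWC olfactory neurons and known to act on the receptor NPR-11, had 2 IDR peaks upstream. The nearer summit, 845 bp before the start, ranked 215 with a pooled signal of 245. It had a signal of 93.1 in replicate 1 (rank 551) and 154 in replicate 2 (rank 113), the higher rank in replicate 2. The farther summit, 1937 bp before the start, ranked 529 with a pooled signal of 168. It had a signal of 71.0 in replicate 1 (rank 971) and 93.6 in replicate 2 (rank 396). The nearer one holds a TAATTG and the farther one neither TAATTA nor TAATTG nor GAGAGA.

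The flp-5 gene (X:8528250-8531076, plus strand, WBGene00001448), which encodes an FMRFamide-like precursor, also had 2 IDR peaks. The stronger, in an intron 552 bp from the start, ranked 368 with a pooled signal of 195, a signal of 80.4 in replicate 1 (rank 766) and 109 in replicate 2 (rank 282). It is the one summit of the 14 with a TAATTA, and it has a TAATTG as well. The weaker, 1264 bp past the end of the gene, ranked 1521 with a pooled signal of 99.9, a signal of 64.2 in replicate 1 (rank 1189) and 44.0 in replicate 2 (rank 2077). The weaker peak was therefore among the 1891 strongest in replicate 1 only.

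**Figure D3:**
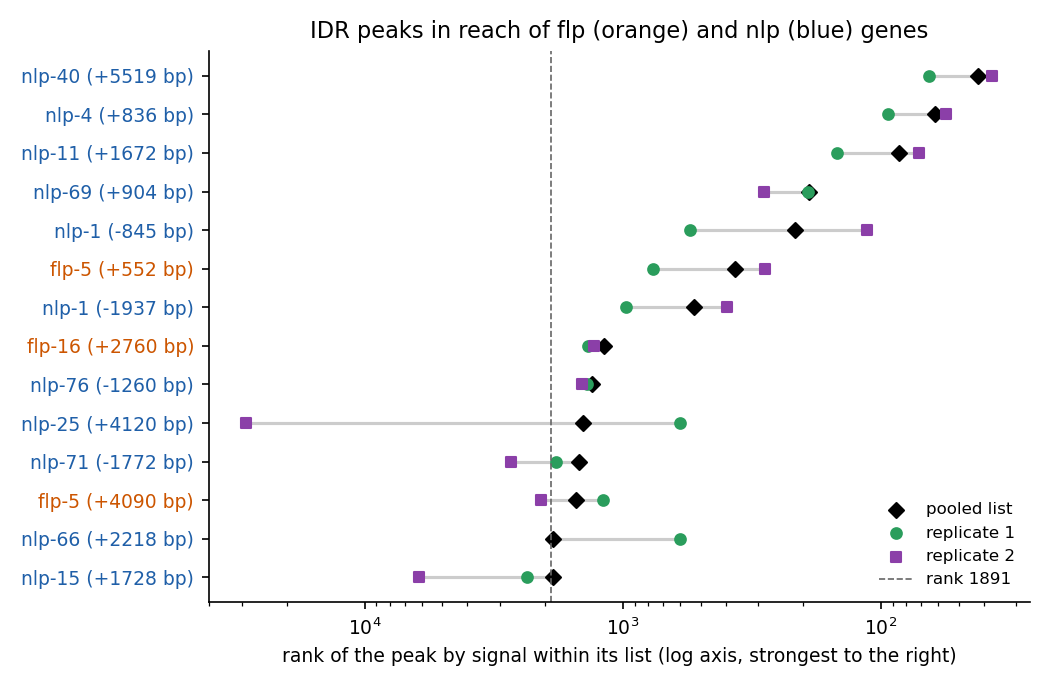
Rank by signal (horizontal log axis, strongest to the right) of each of the 14 IDR peaks at peptide genes in the pooled list, replicate 1 and replicate 2, with a dashed line at rank 1891. The nlp-40, nlp-4 and nlp-11 peaks are within rank 148 in every list, while nlp-25 drops to rank 28831 in replicate 2 and nlp-66 has no replicate 2 peak.

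The remaining 6 peaks were at ranks 1184 to 1863, and 5 of them, all but the one at nlp-15, lay nearer to another gene. The other flp gene with an IDR peak was flp-16, where the summit ranked 1184 (pooled signal 115) and lay 649 bp past the gene's end in the promoter of romo-1, which encodes a mitochondrial protein. Its signal was 59.5 in replicate 1 (rank 1369) and 53.9 in replicate 2 (rank 1296). The nlp-76 peak ranked 1321 and lay 1260 bp before the gene, in an intron of the nuclear hormone receptor gene nhr-17, with a signal of 59.2 in replicate 1 (rank 1380) and 51.6 in replicate 2 (rank 1435). Both peaks were among the strongest 1891 of each replicate.

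The nlp-71 peak ranked 1479 and lay in the promoter of exos-2, an RNA exosome subunit gene, with a signal of 51.4 in replicate 1 (rank 1810) and 40.1 in replicate 2 (rank 2705). The nlp-15 peak, in an intron 1728 bp from the start, ranked 1863 with a signal of 45.4 in replicate 1 (rank 2352) and 31.7 in replicate 2 (rank 6156). Neither was among the 1891 strongest of replicate 2, and the nlp-15 peak was outside that number in replicate 1 as well. Both replicates held a stronger peak at nlp-15 elsewhere, in the promoter of the neighbouring gene smu-1. Its signal was 102 in replicate 1 (rank 454, 287 bp past the end of nlp-15) and 111 in replicate 2 (rank 273, 301 bp past the end), and neither the pooled nor the IDR list had a summit there.

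A pair of peaks, at nlp-25 and nlp-66, stood apart by being far weaker in replicate 2 or missing there. The nlp-25 peak (rank 1427, pooled signal 103) lay 1881 bp past the gene's end in a coding exon of grsp-1, which encodes a glycine-rich secreted protein. Its signal was 89.3 in replicate 1 (rank 598) and 19.1 in replicate 2 (rank 28831). The nlp-66 peak (rank 1860, pooled signal 88.7) lay 1502 bp past the gene's end in a coding exon of the hedgehog-related gene grd-1. Its signal was 89.1 in replicate 1 (rank 602), and replicate 2 had no peak within 200 bp. G or C made up 62.4% of bases at the nlp-25 summit and 72.3% at the nlp-66 summit, against 26.7 to 60.4% at the other 12. Of all 1891 IDR summits, 223 had over 60% G or C, and 39.5% of these had no replicate 2 peak, against 1.68% of the 1668 others. The nlp-4 summit is also among the 223, and its peak ranked 56 in replicate 2. The part of base composition in the replicate difference was not tested.

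**Figure D4:**
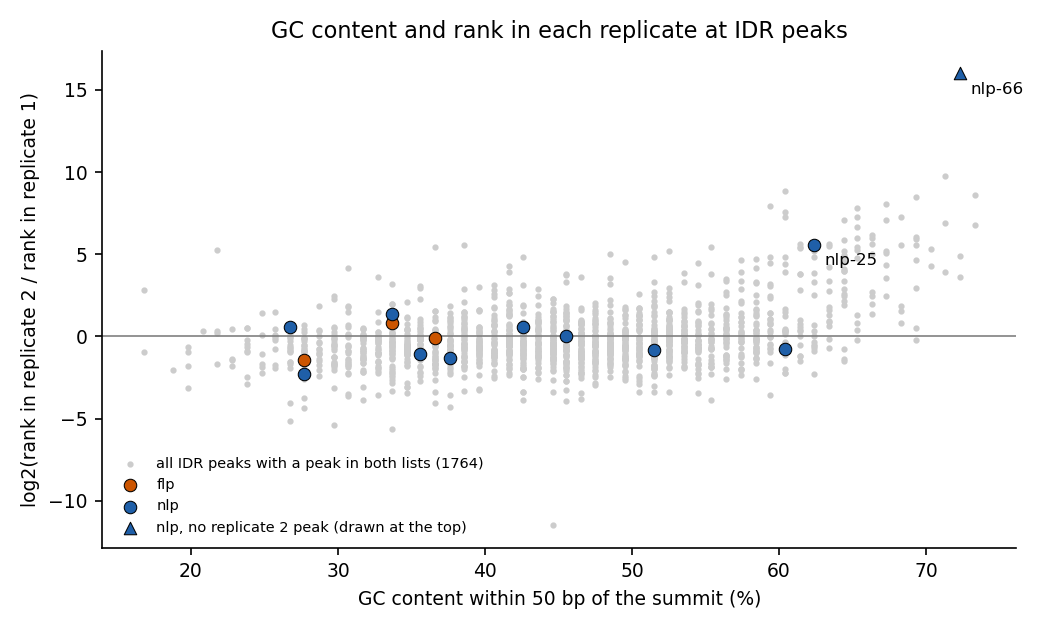
GC content within 50 bp of the summit (percent, horizontal axis) against the log2 ratio of the replicate 2 rank to the replicate 1 rank (vertical axis, above 0 where replicate 2 ranks the peak lower) for IDR peaks, with the peaks at peptide genes marked; nlp-66, with no replicate 2 peak, is drawn at the top edge. The nlp-25 peak, at 62.4% G or C, is far above the other marked peaks that have a replicate 2 peak.

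Presence in the replicates was close to that of IDR peaks in general. Of the 14 peptide-gene peaks, 13 had a peak within 200 bp in both replicate lists (92.9%, against 93.3% of all IDR peaks), and 9 were among the 1891 strongest of both, against 58.0% of all IDR peaks. Of the 13, 7 ranked higher in replicate 2 and 6 in replicate 1. Spearman's rho of the signals across the 13 was 0.817, and across the 1764 IDR peaks present in both lists it was 0.44. These are descriptions across peaks that share their libraries. The caller's q-value was under 0.05 for 9 of the 14 peaks, those ranked 1321 or better. It followed rank among the 14, and the share over all IDR peaks is not given.

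The word TAATTG was at 5 of the 14 IDR summits (35.7%), within 50 bp on either strand, against 11.6% of all IDR summits and 7.72% of all pooled summits. All 5 were among the 6 strongest peptide-gene peaks, those down to the flp-5 intron peak at rank 368. Of all IDR peaks of ranks 1 to 368, 12.2% held the word, and of ranks 369 to 1891, 11.5%, so that among all peaks its share hardly changed with rank. The split at rank 368 was made after the values were seen and carries no test. The bare core TAAT was at 8 of the 14 (57.1%, all IDR summits 47.8%), TAATTA at 1 (7.14% against 6.93%), and GAGAGA at 2 (14.3% against 21.6%). Median GC content was 31.6% at the 6 strongest summits and 48.5% at all IDR peaks of ranks 1 to 368. The part of base composition in the TAATTG share was not tested. In the pooled list, 18 of the 165 distinct summits at peptide genes held TAATTG (10.9%), 4 of the 57 at flp genes (7.02%) and 14 of those at nlp genes (13.0%).

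Just below the IDR list came 10 peptide genes with no IDR peak in reach, 3 flp and 7 nlp, whose strongest pooled signals ran from 79.3 to 58.6, under the lowest IDR signal of 88.0. The highest was nlp-57, at rank 2321 in the pooled list, rank 2413 in replicate 1 and rank 3501 in replicate 2. At nlp-12, a cholecystokinin-like gene of the DVA neuron, the strongest pooled peak ranked 2578. It lay 1274 bp before the start in the promoter of emr-1, and that peak ranked 1532 in replicate 1, while replicate 2 had none within 200 bp of it and its best rank at the gene was 18186. At nlp-14, a peptide gene of the sleep-promoting ALA neuron, the strongest pooled peak ranked 2617. It lay in the gene's own promoter, 385 bp before the start, with a TAATTA, and ranked 7092 in replicate 1 and 1733 in replicate 2. At nlp-12 and at nlp-14, then, one replicate placed a peak among its 1891 strongest and the other did not.

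The other 7 genes of this band were flp-9, flp-23, nlp-53, nlp-35, nlp-47, flp-6 and nlp-7, at pooled ranks from 3191 to 5460. At nlp-47, related to gonadotropin-releasing hormone, the strongest pooled peak, in an intron, ranked 5084 and was at rank 3907 in replicate 2, with no replicate 1 peak within 200 bp. At flp-6 the strongest pooled peak, 52 bp past the gene's end, ranked 5086, with rank 5483 in replicate 1 and 18091 in replicate 2. None of the 7 had a peak among the 1891 strongest of either replicate.

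The RIA gene nlp-22 (X:2341359-2342089, minus strand, WBGene00003760) had no IDR peak and 2 pooled summits. The stronger, 713 bp before the start, ranked 10821 with a signal of 47.9. It held a TAATTG and lay inside the neighbouring gene nlp-23. Replicate 1 had a peak there of signal 38.8 (rank 3412), and replicate 2 had none within 200 bp. The other summit, 797 bp past the start, held TAATTA and TAATTG. It ranked 23096 with a signal of 37.0, with a signal of 19.5 in replicate 1 (rank 23878) and 20.4 in replicate 2 (rank 24796). The caller's −log10 q-value was 0.0152 at the stronger summit and 0.0355 at the other. Neither summit thus had a q-value under 0.05, and binding of CEH-8 at nlp-22 cannot be read from them. The second is near the lowest signal of the pooled list, 33.1. The first is weaker than the median best rank of the nlp genes, 9973, and of all genes, 8670. It is slightly stronger than that of the flp genes, 11312.

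Over all peptide genes with a pooled summit, the median of the best pooled signal was 47.3 for flp and 49.1 for nlp, against 51.2 for all genes. The median best rank was 11312 for flp, 9973 for nlp and 8670 for all genes. A gene's best peak is taken over all summits in reach, and a longer gene has more sequence searched. Median spans were 1186 bp for flp, 860 bp for nlp and 2027 bp for all genes. The part of gene length in these medians was not tested. The highest best signal was 195 in flp, at flp-5, and 468 in nlp, at nlp-40. Of the 165 distinct pooled summits, 34.5% had a peak in both replicate lists, against 37.9% of all pooled summits. Of them, 6 were shared by neighbouring peptide genes, such as flp-2 with flp-3, nlp-22 with nlp-23 and nlp-31 with nlp-34, so that these genes are not independent counts.

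**Figure D5:**
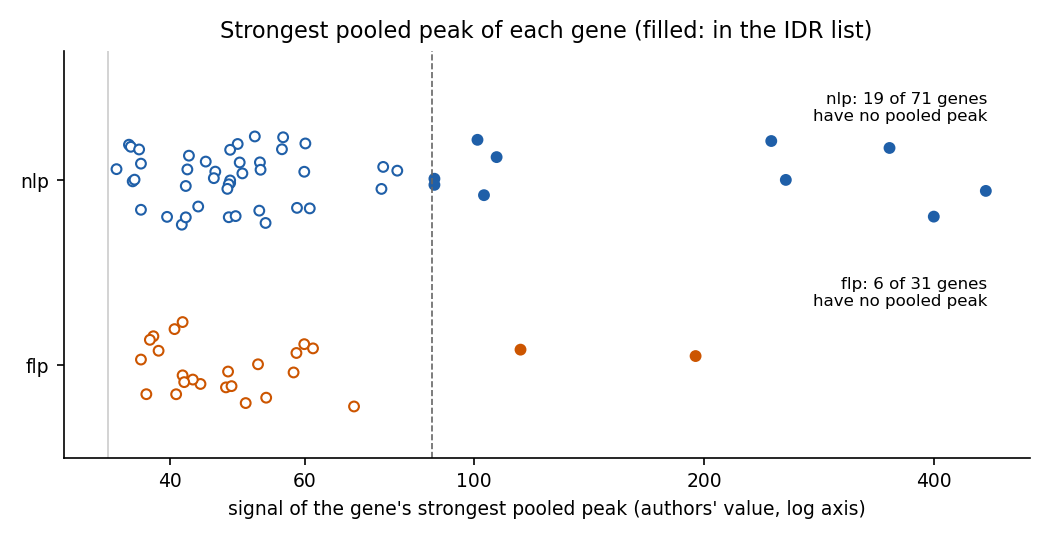
Signal of the strongest pooled peak (log axis) at each flp and nlp gene with a pooled summit in reach. The dashed line is the lowest IDR signal, 88.0, and the grey line the lowest pooled signal, 33.1; 2 flp and 10 nlp genes stand above the dashed line.

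At the other end, 25 peptide genes had no pooled summit in reach, 6 flp and 19 nlp. A pooled summit was in reach of 75.5% of the peptide genes, which are shorter, and of 82.5% of all genes. The flp genes were flp-7, flp-11, flp-17, flp-20, flp-22 and flp-24. Of the 25, 9 had no summit in any of the 4 lists, namely flp-17, nlp-5, nlp-20, nlp-41, nlp-48, nlp-49, nlp-51, nlp-70 and nlp-82. The same count over all genes is not given, so whether 9 is unusual cannot be read from it. The pooled list and each replicate list hold the same number of peaks, 30000, and depth per replicate is unknown. Binding too weak to enter the lists was not detectable there.

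Within nlp, the epidermal group nlp-24 to nlp-34, several of which are known to be induced by infection or wounding, had an IDR summit at 1 of 11 genes (9.09%), nlp-25, and that peak was the GC-rich one in grsp-1. Of the 60 other nlp genes 9 had one (15.0%), against 13.0% of all genes. The exact intervals over genes, 0.23 to 41.3% and 7.1 to 26.6%, overlap. A pooled summit was in reach of 8 of the 11 (72.7%) and 44 of the 60 (73.3%), against 82.5% of all genes. By chromosome, none of the 12 peptide genes on III had an IDR summit in reach, where 17.3% of all genes had one. On I, 3 of 9 did, where 15.8% of all genes had one, and on X 4 of 32, where 14.5% of all genes had one. The counts were 2 of 13 on II (all genes 12.5%), 1 of 15 on IV (11.4%) and 2 of 21 on V (9.69%). Each chromosome's exact interval holds the share of all genes there, including III (0.0 to 26.5%) and I (7.49 to 70.1%).

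Genes that make or sense the peptides were read beside them. Of 18 genes for peptide processing and dense core vesicles, 7 had an IDR summit in reach (38.9%), against 13.0% of all genes. They are longer, with a median span of 5013 bp, and had 4.19 pairs per 100 kb against 2.44 for the peptide genes and 2.06 for all genes. Among them were egl-3, the proprotein convertase that cuts most flp and nlp precursors (rank 435, at −1119 bp from the start), and egl-21, the carboxypeptidase that trims the cut ends (rank 1890, at −9 bp). Near their starts were also the summits of the Rab2 gene unc-108 (rank 561, at −73 bp), the dense core vesicle gene ida-1 (rank 763, at −101 bp) and rund-1 (rank 1759, at −435 bp). The summit at cpd-2, a carboxypeptidase D gene, was the strongest (rank 33), but it lay 6692 bp from the start with T27A8.7 as the nearest gene. The summit at the convertase gene bli-4 (rank 1204) lay 16398 bp from the start, in a promoter, with K04F10.3 nearest. With peaks found in both replicates 4 of the 18 were left (22.2%, against 8.22% of all genes). These were egl-3, unc-108, cpd-2 and bli-4, and at cpd-2 and bli-4 another gene was nearest. The summits at egl-21, ida-1 and rund-1 were not among those found in both.

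Of 106 peptide receptor genes, 11 had an IDR summit in reach (10.4%, against 13.0% of all genes) and 7 with peaks found in both replicates (6.6%, against 8.22%). Their strongest were at dmsr-4 (rank 197) and tkr-2 (rank 353), both in promoters and nearest to another gene, D1069.3 and C49A9.10 respectively. The npr-4 summit, at rank 675, lay at −176 bp from the gene's start and the frpr-15 summit, at rank 893, at −641 bp. Of 39 insulin-like genes 11 had an IDR summit in reach (28.2%, against 13.0% of all genes), and 9 with peaks found in both replicates (23.1%, against 8.22%). None of the precursor genes pdf-1, pdf-2, ntc-1 and snet-1 had an IDR summit in reach, and 3 of the 4 had a pooled one.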

How the data were processed

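ChIP-seq peaks of tagged CEH-8 came from 2 biological replicates of 1 group. Per the file headers, each replicate's alignment and a control alignment gave that replicate's peaks, and the authors added a pooled list and one of optimal IDR peaks. The deposited signal of each peak, the authors' own value, was used as it stands to rank peaks within a list. The deposited −log10 q-values were read only for the count under 0.05 and for pooled peaks outside the IDR list. The deposited summit offset was added to the peak's start. Caller, aligner, signal scale, IDR threshold and read depth were not given in the sources used here. By signal, the IDR peaks were the top 1891 of the pooled list, and some of them lack a peak in one replicate. Per the labels, chromatin was sonicated to fragments of 200 to 800 bp.

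Gene models were those of Ensembl release 115, and sequences came from the RefSeq copy of the same assembly, in which 99.8% of annotated start codons read ATG. A replicate's peak at a summit was its strongest within 200 bp. Classes were taken in the order promoter, 5' UTR, coding exon, 3' UTR, intron, non-coding RNA gene, other intergenic. Genes named are those with an IDR peak, nlp-22, the 10 with the strongest pooled peaks below the IDR list, and those with no pooled peak (the flp genes and those with no peak in any list by name). In the related lists, rab-2 and flr-2 matched no gene of that name, and related genes were named after their values were seen. Members and lists were chosen with earlier results of these data known, and no test was made. Alternatives were other distances, the nearest gene, peak overlap, the gene start, stronger peaks, peaks found in both replicates and each replicate alone. Computation was in Python 3.11.15 (pandas 2.3.3, numpy 2.4.6, matplotlib 3.10.9, scipy 1.17.1). Of the steps, the count of summits in reach of genes and the search for TAATTG were tested on simulated data.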

Additional observations from a re-analysis of the deposited data

How the results depend on the processing

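The flp share stayed below the nlp share under every alternative run on the IDR list and the strongest replicate peaks, but the counts moved with the distance and the peak set. Of the 2 flp genes, 1 (flp-5) was left within 500 bp, with the nearest gene only, with the gene start in place of the whole gene, and with the stronger 50% of the IDR list. Of the 10 nlp genes, 6 were left within 1000 bp and with peaks found in both replicates, and 5 within 500 bp, with the nearest gene only and with the stronger 50%. Within 5000 bp there were 16. The difference, flp minus nlp, was −7.63 percentage points. It became −2.0 within 1000 bp and with peaks found in both replicates, −3.82 within 500 bp, with the nearest gene only and with the stronger 50%, and −12.9 within 5000 bp. Smaller distances and fewer peaks leave fewer genes by construction, and the share of all genes fell likewise, to 9.9% within 1000 bp and 8.01% within 500 bp, and rose to 21.2% within 5000 bp. Any overlap of the peak interval added nlp-14. Each replicate alone gave 2 flp genes and 8 to 11 nlp genes, with differences of −9.04 to −4.82 percentage points. With 31 flp genes, the exact interval of the 6.45% seen runs from 0.791 to 21.4%. No paired analysis was possible because there is 1 group and no test.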
